A study of Homo sapiens with 12 samples.

Results

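The data described here are the response of 23132/87, an established gastric adenocarcinoma cell line, to myricone C, a neolignan of the spice plant Myristica fragrans. They comprise 6 of the 12 libraries of the series, and all 11070 genes of the 23132/87 table entered the comparison, of 12360 genes listed for either line. The 3 treated libraries came from cells given 10 µM myricone C and the 3 control libraries from cells given the vehicle, 0.1% DMSO, each for 48 h. Cells of both groups are labelled wild type, were grown in medium with fetal bovine serum, and are described as biological replicates. The other 6 libraries are the same treatment of SW48, a colorectal line, and serve below only where a difference between the lines was tested. A single dose, a single time and a single gastric line were used, so neither dose dependence nor time course can be read from the values. The p-values measure the spread between these 3 and 3 libraries.

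Proteins that enter the endoplasmic reticulum (ER) fold there with the help of chaperones and disulfide-forming enzymes. When folding falls behind, the membrane sensors PERK (gene EIF2AK3), IRE1 (ERN1) and ATF6 start the unfolded protein response. PERK phosphorylates the initiation factor eIF2α, as do GCN2, PKR and HRI under other stresses, and this integrated stress response slows translation in general while favouring translation of ATF4. ATF4 with its partners turns on amino acid transporters, amino acid synthesis, tRNA synthetases and the factor CHOP (DDIT3). Beside it, a programme is driven by the aryl hydrocarbon receptor (AHR), which senses flat aromatic molecules and induces cytochrome P450 genes, and another by NRF2 (NFE2L2), which senses electrophiles.

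The deposited values are an expression signal that resembles FPKM or TPM, and log2 changes are on log2(value + 1), myricone C minus vehicle, with limma's moderated standard error after the ± sign. A gene is said to have risen or fallen where its limma p-value, adjusted by the Benjamini-Hochberg method over all 11070 genes, was under 0.05. Of all genes, 46.5% were called, with 2582 rises (23.3%) and 2571 falls (23.2%), and 7.54% were called with a change of at least 1. The median change was 0.01, and the 5th and 95th percentiles were −0.93 and 0.87. In 56.8% of genes the 3 treated libraries lay wholly above or wholly below the 3 vehicle libraries. These shares are the background against which the counts in each gene list are given.

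Every listed gene was above 1 in all 6 libraries, so genes silent in either group are not in the table. The summed values of a library ran from 464037 to 525838, with myricone C replicate 1 lowest. The leading principal component held 77.3% of the variance and separated the groups, from −32.0 to −27.7 for vehicle and from 25.1 to 38.4 for myricone C. On the next component, with 10.0% of the variance, vehicle replicate 3 at −15.7 and myricone C replicate 1 at −14.4 stood apart from the other 4 libraries, which lay between 2.07 and 10.7. Values are shares of a library, and fewer cells of a kind or state cannot be told apart from less RNA per cell.

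The cell type label was checked against marker genes. All 6 epithelial markers were listed, with means over the 6 libraries from 125 to 3097. None of 9 leukocyte markers and 1 of 11 mesenchymal and endothelial markers (COL1A1, at 8.62 to 13.5 across the libraries) were listed. Of 14 gastric lineage markers only TFF1, a secreted trefoil peptide, and GAST, the gastrin gene, were listed, and MUC5AC, TFF2, CLDN18 and GKN1 were among those not listed. Of 10 intestinal markers CDH17, VIL1, LGALS4 and CDX2 were listed, so the gastric origin rests on the label and not on these transcripts.

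**Figure D1:**
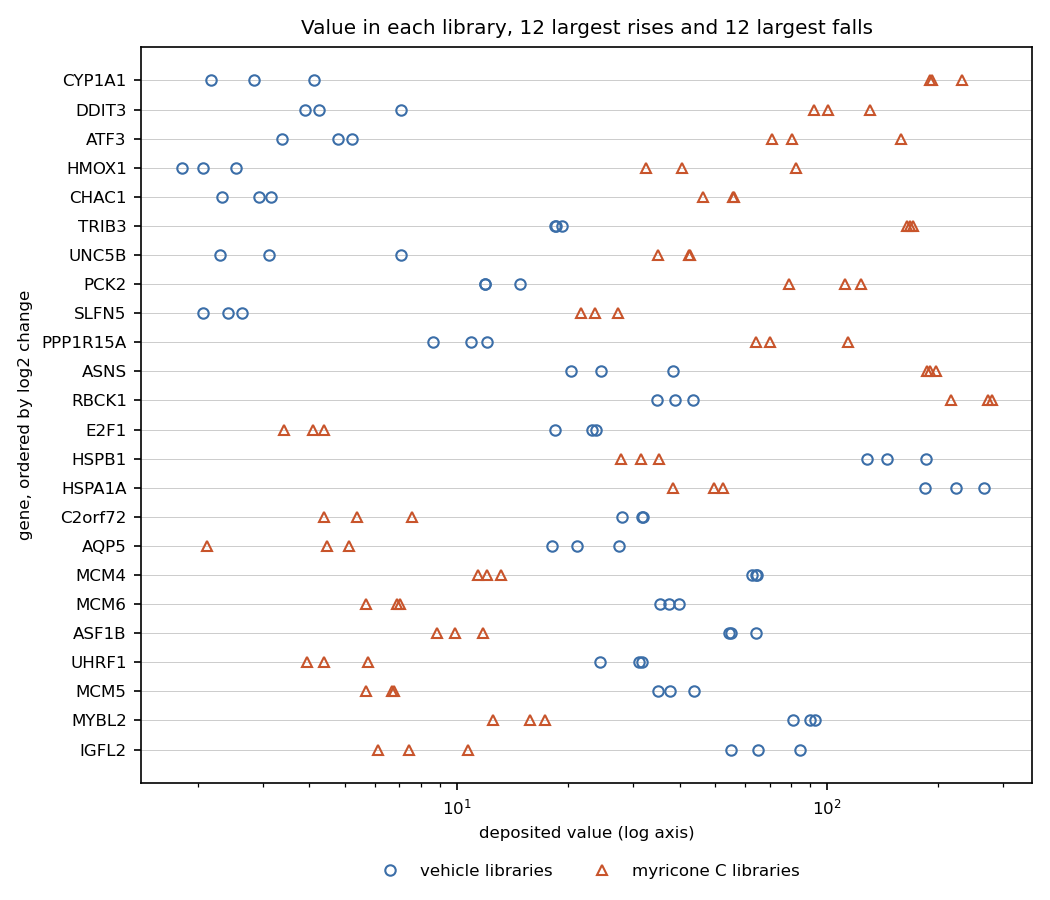
Deposited value in each library (log axis) for the 12 strongest risers and the 12 strongest fallers among called genes with a mean of at least 10. Circles are the 3 vehicle libraries and triangles the 3 myricone C libraries; in all 24 genes the symbols of the groups do not overlap.

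The 12 largest rises held 6 genes of the stress response: DDIT3, ATF3, CHAC1, TRIB3, PPP1R15A and ASNS. The other 6 were CYP1A1, HMOX1, UNC5B (a netrin receptor), PCK2, SLFN5 and RBCK1, a subunit of the linear ubiquitin ligase. SLFN5, of the Schlafen family, was at 2.42, 2.64 and 2.06 in the vehicle libraries and at 27.2, 21.6 and 23.6 in the treated ones, a change of 2.90 ± 0.13 (adjusted p = 1.25e-06). RBCK1 went from 43.4, 38.9 and 34.7 to 216, 279 and 273, a change of 2.68 ± 0.12 (adjusted p = 1.25e-06). For both, the lowest treated library was several times the highest vehicle library. Among the 12 largest falls were replication and chromatin genes (MCM4, MCM5, MCM6, ASF1B, UHRF1, E2F1 and MYBL2), 2 heat shock genes (HSPA1A and HSPB1), IGFL2, AQP5 and C2orf72.

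The genes of the 3 membrane sensors of ER stress rose. ERN1 was at 2.55, 2.07 and 2.22 in the vehicle libraries and at 19.8, 15.3 and 14.6 with myricone C, a change of 2.41 ± 0.14 (adjusted p = 3.19e-06). EIF2AK3 went from 7.00, 6.79 and 7.37 to 25.9, 17.8 and 15.3 (1.33 ± 0.17, adjusted p = 0.000222), and ATF6 from 22.9, 23.1 and 25.7 to 61.8, 55.1 and 47.3 (1.16 ± 0.11, adjusted p = 4.9e-05). In all 3 genes every treated library was above every vehicle library. The remaining eIF2α kinases did not pass the test: EIF2AK1 (HRI) changed by −0.01 ± 0.09, EIF2AK2 (PKR) by −0.20 ± 0.14 and EIF2AK4 (GCN2) by −0.20 ± 0.11. The lower end of the 95% interval was −0.21, −0.53 and −0.43 for these kinases and the upper end 0.18, 0.12 and 0.04. MBTPS1 and MBTPS2, the proteases that cut ATF6, had changes of 0.02 and 0.00 and were not called.

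PPP1R15A encodes GADD34, the stress-induced subunit that brings a phosphatase to eIF2α. It was at 12.1, 10.9 and 8.63 in the vehicle libraries and 114, 70.3 and 64.3 with myricone C (2.83 ± 0.20, adjusted p = 6.89e-06). PPP1R15B, its constitutive relative, rose by 0.47 ± 0.12 (adjusted p = 0.0116). XBP1, whose mRNA IRE1 splices, was the 1 sensor-list gene that fell, from 196, 243 and 284 to 169, 164 and 149 (−0.57 ± 0.13, adjusted p = 0.00665). The groups of XBP1 libraries did not overlap, but the call was lost with quantile normalization (−0.40, adjusted p = 0.0521), and the table does not separate spliced from unspliced mRNA. In all, 6 of the 13 sensor-list genes rose and 1 fell, with a median change of 0.03.

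Of 16 stress transcription factors, 12 rose and 1 fell, with a median change of 1.28. DDIT3 was at 3.90, 7.08 and 4.26 in the vehicle libraries and 131, 101 and 92.3 with myricone C (4.18 ± 0.19, adjusted p = 1.25e-06). ATF3, a repressor and activator induced by ATF4, went from 4.77, 5.20 and 3.37 to 158, 80.6 and 70.9 (4.18 ± 0.26, adjusted p = 3.93e-06). Both genes had their highest value in myricone C replicate 1, and without that library ATF3 changed by 3.83 and DDIT3 by 4.04. TRIB3, a pseudokinase that binds ATF4 and AKT, was the most even of the group, at 18.4, 18.5 and 19.3 against 171, 168 and 165 (3.10 ± 0.08, adjusted p = 6.09e-08). ATF4 mRNA itself went from 192, 199.8 and 223 to 479, 484 and 446 (1.19 ± 0.10).

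The bZIP partners of ATF4 did not move together. CEBPB rose by 2.37 ± 0.12 and CEBPG by 1.59 ± 0.12, and NFIL3, another bZIP factor, rose by 2.26 ± 0.16. CEBPA and CEBPD were not called, at −0.01 ± 0.15 and 0.28 ± 0.17. ATF5, the close relative of ATF4, fell from 22.7, 22.1 and 20.9 to 9.18, 11.2 and 13.5 (−0.91 ± 0.14, adjusted p = 0.000525), with no overlap between the groups.

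Genes of amino acid supply rose. Of 12 listed amino acid transporters 9 rose and 0 fell, with a median change of 1.27, and the count of falls was also 0 at an unadjusted limma p under 0.05. SLC7A11, the cystine importer, went from 9.58, 11.5 and 16.4 to 97.5, 76.7 and 77.7 (2.68 ± 0.17, adjusted p = 4.86e-06). Its heavy-chain partner SLC3A2 went from 85.7, 95.4 and 85.6 to 341, 347 and 348 (1.95 ± 0.09). Every treated library was above every vehicle library for both. SLC1A4, a neutral amino acid carrier, rose by 2.20 ± 0.14. The list's share of the summed values of a library was 0.0885 to 0.0994% with vehicle and 0.269 to 0.276% with myricone C.

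Of 18 listed enzymes of amino acid and folate metabolism 11 rose and 4 fell. ASNS, asparagine synthetase, was at 20.4, 24.6 and 38.3 in the vehicle libraries and 186, 197 and 189.5 in the treated ones (2.79 ± 0.19, adjusted p = 5.21e-06). PSAT1, of serine synthesis, rose by 1.59 ± 0.11 and CTH, which makes cysteine, by 1.52 ± 0.15. PHGDH, the enzyme before PSAT1, is not listed. Among the folate enzymes of the list, mitochondrial MTHFD2 rose by 1.27 ± 0.10, while cytosolic MTHFD1 fell by 1.29 ± 0.09 and cytosolic SHMT1 fell by 1.38 ± 0.13. MTHFD1 was at 79.2, 79.7 and 75.4 with vehicle and 29.7, 31.8 and 32.8 with myricone C, and SHMT1 at 22.7, 26.3 and 26.1 and 7.69, 9.02 and 10.4. Neither pair of groups overlapped.

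The tRNA synthetases of cytosol and mitochondrion were listed apart. Of 20 cytosolic synthetases 13 rose and 2 fell, with a median of 0.69, led by WARS1 (tryptophan, 1.71 ± 0.10), AARS1 (alanine, 1.46 ± 0.09) and CARS1 (cysteine, 1.45 ± 0.10). WARS1 was at 53.4, 54.7 and 49.3 with vehicle and 191, 171 and 161 with myricone C. VARS1 (valine) and QARS1 (glutamine) fell by 0.52 ± 0.10 and 0.44 ± 0.10. Of 17 mitochondrial synthetases 1 rose and 7 fell, with a median of −0.31, the falls including LARS2 and CARS2. The rise was RARS2 (0.35 ± 0.10), a call lost without vehicle replicate 2 (0.34) or myricone C replicate 2 (0.35). CARS2 went from 19.2, 19.8 and 20.7 to 9.33, 14.3 and 11.4 (−0.74 ± 0.14, adjusted p = 0.00232), in the direction opposite to its cytosolic counterpart CARS1, at 20.0, 22.2 and 24.2 and 61.8, 64.0 and 60.6. The cytosolic list took 0.203 to 0.228% of the summed values with vehicle and 0.388 to 0.424% with myricone C.

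Several inhibitors of growth signalling through mTORC1 rose. Of 10 listed, 4 rose and 1 fell; the fall, of AKT1S1 (−0.36 ± 0.12), was lost without vehicle replicate 1 (−0.33) or 2 (−0.32), and also without myricone C replicate 1 (−0.26) or 2 (−0.39). SESN2, which reports leucine to mTORC1, went from 6.11, 6.64 and 3.99 to 33.1, 30.9 and 31.5 (2.34 ± 0.16, adjusted p = 5.38e-06), and DDIT4 from 89.3, 95.6 and 91.0 to 384, 442 and 453 (2.20 ± 0.10, adjusted p = 1.25e-06). TSC1 rose by 0.85 ± 0.13. EIF4EBP1, the translation repressor that mTORC1 phosphorylates and that ATF4 also induces, went from 42.8, 46.5 and 44.7 to 124, 148 and 144 (1.61 ± 0.10, adjusted p = 3.81e-06). EIF4EBP1 was counted with the translation initiation genes and is not among the 10. In SESN2, DDIT4, TSC1 and EIF4EBP1 no treated library fell below a vehicle library. EIF4E, the binding partner of the EIF4EBP1 protein, fell by 0.78 ± 0.09 and the scaffold EIF4G1 fell by 0.74 ± 0.09. Over the 35 genes of translation initiation 11 rose and 9 fell, which is close to the background on both sides.

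Genes of the ER and of early secretory traffic rose. HSPA5 encodes BiP, the main ER chaperone of the HSP70 family. It was at 239, 239 and 239.7 in the vehicle libraries and 1163, 776 and 707 with myricone C (1.84 ± 0.17, adjusted p = 2.88e-05), and without myricone C replicate 1, its highest library, the change was 1.63. Of 21 genes of ER targeting and translocation 12 rose and 2 fell. SEC63, the translocon partner of BiP, rose by 1.30 ± 0.13, SSR3 by 1.13 ± 0.09 and SRP72 by 0.87 ± 0.11. The falls were SRP14 and SRP9, which form the Alu domain of the signal recognition particle, at −0.78 and −0.66. SRP9 was at 244, 234 and 271 with vehicle and 144, 151 and 179 with myricone C, so members of the same particle moved in opposite directions.

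Of 16 disulfide enzymes and ER cofactors 10 rose and 2 fell, led by ERP44, which retains proteins in the early secretory pathway (1.05 ± 0.15), MANF (0.60 ± 0.13) and PDIA5 (0.57 ± 0.13). The falls were TMX1 (−0.44 ± 0.11) and TXNDC11 (−0.34 ± 0.10), the latter not called without vehicle replicate 2 (−0.34) or myricone C replicate 2 or 3 (−0.32 in each). Of 19 coat genes of ER-to-Golgi traffic 10 rose and 0 fell, and 0 fell at an unadjusted limma p under 0.05 either. The rises numbered 6 without vehicle replicate 1 or without vehicle replicate 2, and 1 fall was called without myricone C replicate 1. SEC24D, a cargo-binding coat subunit, went from 19.1, 20.3 and 25.4 to 92.4, 65.2 and 57.0 (1.66 ± 0.17, adjusted p = 6.43e-05), and COPA rose by 0.67 ± 0.12. Both had their highest value in myricone C replicate 1.

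The promoters of HSPA5 and ASNS are shown because each holds, by its letters, the element through which its stress response is classically described. The sequences are the 250 bases before the start in RefSeq on GRCh38.p14, read 5′ to 3′ on the gene's strand, here the minus strand for both, at chr9:125241344-125241593 for HSPA5 and chr7:97872409-97872658 for ASNS. In HSPA5 the capitals mark the ER stress element, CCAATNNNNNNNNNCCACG. In ASNS they mark a C/EBP-ATF response element, TGATGNAAN, which overlaps a match to the heat shock element GAANNTTC.
HSPA5: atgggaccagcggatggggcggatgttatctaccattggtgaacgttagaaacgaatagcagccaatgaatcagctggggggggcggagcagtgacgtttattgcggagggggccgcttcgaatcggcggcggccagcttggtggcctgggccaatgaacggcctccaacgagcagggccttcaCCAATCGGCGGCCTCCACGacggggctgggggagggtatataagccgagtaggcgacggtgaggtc
ASNS: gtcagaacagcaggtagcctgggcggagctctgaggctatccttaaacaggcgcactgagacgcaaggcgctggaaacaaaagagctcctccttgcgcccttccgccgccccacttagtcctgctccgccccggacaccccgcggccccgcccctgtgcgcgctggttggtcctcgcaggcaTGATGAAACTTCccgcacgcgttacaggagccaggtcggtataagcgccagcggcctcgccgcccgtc
Motifs were searched on both strands in the 8804 listed genes with such a promoter, 79.5% of the table, of which 301 rose and 357 fell by at least 1. The ER stress element was in 13 of all these promoters (0.148%), in 3 of those of genes that rose (0.997%) and in 0 of those that fell. HSPA5 is among the 3, and counts this small do not show whether the shares differ. The C/EBP-ATF element was in 1.20%, 2.66% and 1.68%, and in 1.54%, 5.65% and 1.68% when the 50 bases after the start were added. The antioxidant element TGACNNNGC was in 12.4%, 17.6% and 13.7%. The promoter of DDIT3 held none of these 3 motifs in this window.

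**Figure D2:**
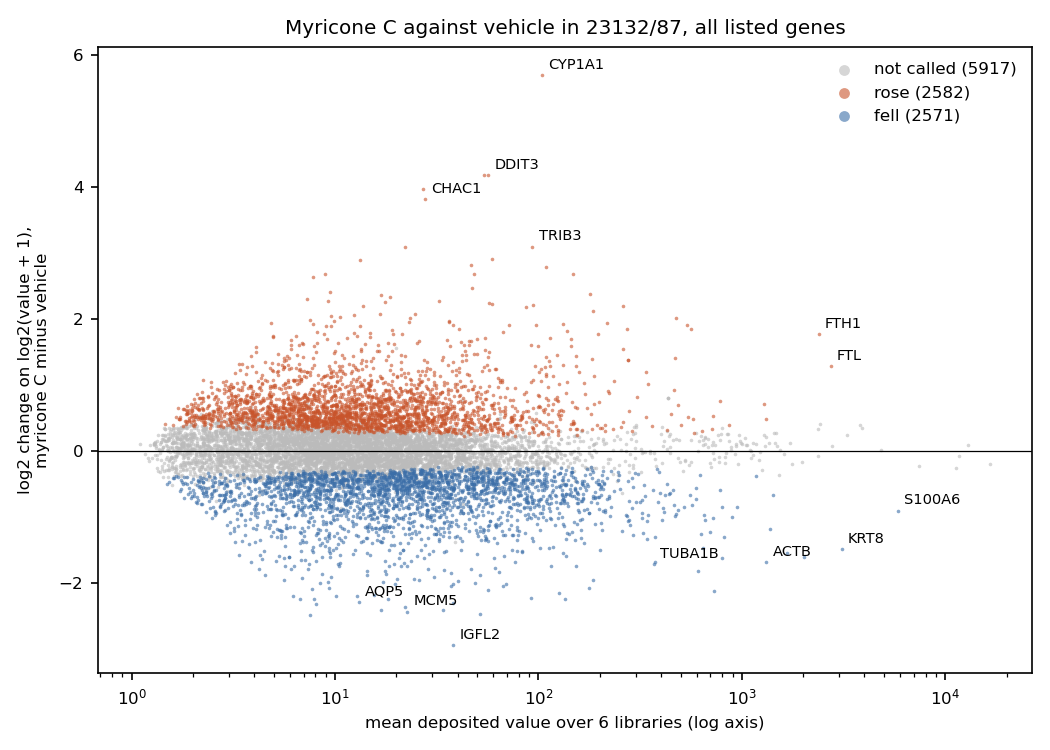
Log2 change, myricone C minus vehicle on log2(value + 1), against the mean deposited value over the 6 libraries (log axis), 1 point per gene for all 11070 genes. Red points rose (2582), blue points fell (2571) and grey points were not called; CYP1A1 is the highest point and IGFL2 the lowest.

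CYP1A1, the cytochrome P450 classically induced through the aryl hydrocarbon receptor, had the largest change in the table. It was at 2.17, 2.83 and 4.11 in the vehicle libraries and 232, 192 and 190.0 with myricone C (5.69 ± 0.17, adjusted p = 6.09e-08). TIPARP, a receptor-induced ADP-ribosyltransferase that feeds back on it, went from 16.2, 13.0 and 13.7 to 68.3, 56.6 and 51.1 (1.96 ± 0.13, adjusted p = 5.21e-06). Neither gene had overlapping groups. CYP1B1 was at 4.96, 1.74 and 2.57 and 5.54, 4.92 and 5.92, with overlap between the groups, and its rise of 0.73 ± 0.24 (adjusted p = 0.0313) was lost without vehicle replicate 2 (0.48) or 3 (0.67), and without myricone C replicate 1 (0.72) or 3 (0.68).

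NQO1 and ALDH3A1, also known targets of the receptor, were not raised. NQO1, which NRF2 induces as well, was at 1954, 1999 and 2256 with vehicle and 1538, 1991 and 2049 with myricone C (−0.16 ± 0.15, 95% interval −0.50 to 0.18) and was not called. ALDH3A1 fell from 160.1, 125 and 131 to 65.7, 99.5 and 99.7 (−0.66 ± 0.17, adjusted p = 0.00904), a call lost in the fit on all 12 libraries (adjusted p = 0.0889). AHR itself rose by 0.48 ± 0.14 (adjusted p = 0.0201), a call lost without vehicle replicate 1 (0.43) or 2 (0.48) and a change of 0.32 without myricone C replicate 1, and its partner ARNT rose by 0.38 ± 0.10. The chaperone that holds the receptor, HSP90AB1, fell from 952, 976 and 957 to 474, 481 and 472 (−1.01 ± 0.10). Of the 10 listed pathway genes 5 rose and 3 fell, and 3 rose without vehicle replicate 2. AHRR and CYP1A2 are not listed.

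The promoter of CYP1A1 is shown as that of the gene with the largest change. It lies on the minus strand at chr15:74725529-74725778, and the capitals mark a match to the serum response core named CArG, which spans the TATA-like run next to the start.
CYP1A1: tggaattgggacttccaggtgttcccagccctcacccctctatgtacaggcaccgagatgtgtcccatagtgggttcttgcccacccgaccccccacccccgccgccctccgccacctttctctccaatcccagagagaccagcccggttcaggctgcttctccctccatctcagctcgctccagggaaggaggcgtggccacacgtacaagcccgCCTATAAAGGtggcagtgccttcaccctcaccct
No match to the core xenobiotic response element, TNGCGTG, is in this window, which reaches only 250 bases upstream. That core was in 6.50% of all promoters, in 5.32% of those of genes that rose by at least 1 and in 4.48% of those that fell. The CArG core was in 0.931% of all promoters, 3.32% of those that rose and 1.12% of those that fell.

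Genes that handle electrophiles and glutathione moved in both directions. SRXN1, which restores oxidised peroxiredoxins, was at 51.1, 59.8 and 59.2 with vehicle and 355, 276 and 270.0 with myricone C (2.38 ± 0.12, adjusted p = 2.13e-06). GCLM, the modifier subunit of glutathione synthesis, went from 6.89, 8.68 and 10.6 to 46.8, 35.7 and 32.1 (2.01 ± 0.17), and CHAC1, which breaks glutathione down, from 2.32, 3.15 and 2.93 to 46.4, 55.6 and 56.0 (3.82 ± 0.13, adjusted p = 1.82e-07). Genes for making and for degrading glutathione were thus raised in the same libraries. PRDX1, an abundant peroxiredoxin, fell from 781, 817 and 974 to 360.0, 457 and 501 (−0.97 ± 0.15, adjusted p = 0.000542), and GSTO1 and GGCT fell by 1.04 ± 0.10 and 0.97 ± 0.11. Over the 30 genes of the glutathione and thioredoxin list 7 rose and 15 fell, with a median of −0.19. The rises were at the background share of 23.3%, and only the falls were above theirs, 23.2%.

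NFE2L2 rose by 0.42 ± 0.11 and NFE2L1, its ER-bound relative, from 92.3, 96.5 and 76.5 to 209, 223 and 216 (1.28 ± 0.11, adjusted p = 1.6e-05). Their small partners MAFG and MAFF rose by 1.38 ± 0.13 and 1.28 ± 0.13. Of 15 listed aldo-keto reductase, carbonyl reductase and efflux pump genes 8 rose and 2 fell, and 4 rose in the fit on all 12 libraries, which holds only genes listed for both lines. ABCC2, a pump for glutathione conjugates, rose by 1.48 ± 0.12. AKR1C1 and AKR1C2 rose by 1.36 ± 0.15 and 1.42 ± 0.16, but these genes are nearly identical and their reads may have been divided between them. Of 10 genes of the pentose phosphate route and NADPH supply 4 rose and 0 fell, again 0 at an unadjusted limma p under 0.05, with ME1 (malic enzyme) at 1.26 ± 0.13 and IDH1 at 0.82 ± 0.11.

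The ferritin genes rose and the transferrin receptor gene fell. HMOX1, the heme oxygenase that frees iron from heme, went from 2.06, 2.53 and 1.81 to 82.5, 40.6 and 32.4 (3.97 ± 0.28, adjusted p = 6.63e-06), with its highest value in myricone C replicate 1 and a change of 3.58 without it. The ferritin heavy chain FTH1 was at 986, 1130.0 and 1122 with vehicle and 3812, 3733 and 3552 with myricone C (1.78 ± 0.13, adjusted p = 7.95e-06), and the light chain FTL at 1188, 1641 and 1994 and 3358, 3996 and 4202 (1.29 ± 0.20). TFRC, the receptor that takes up transferrin iron, fell from 104, 114 and 131 to 40.9, 38.6 and 40.6 (−1.51 ± 0.10, adjusted p = 5.82e-06). No groups overlapped in these genes. STEAP3, which reduces the imported iron, fell by 0.75 ± 0.14 and HMOX2, the constitutive heme oxygenase, fell by 0.48 ± 0.10. The 13 listed iron genes, 5 up and 4 down, had a median change of −0.22. Together they took 0.476 to 0.667% of the summed values with vehicle and 1.60 to 1.62% with myricone C. FTH1 and FTL made up most of that share in every library, so it does not describe the other members. Ferritin genes have many processed pseudogenes, so part of their reads may be misplaced.

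**Figure D3:**
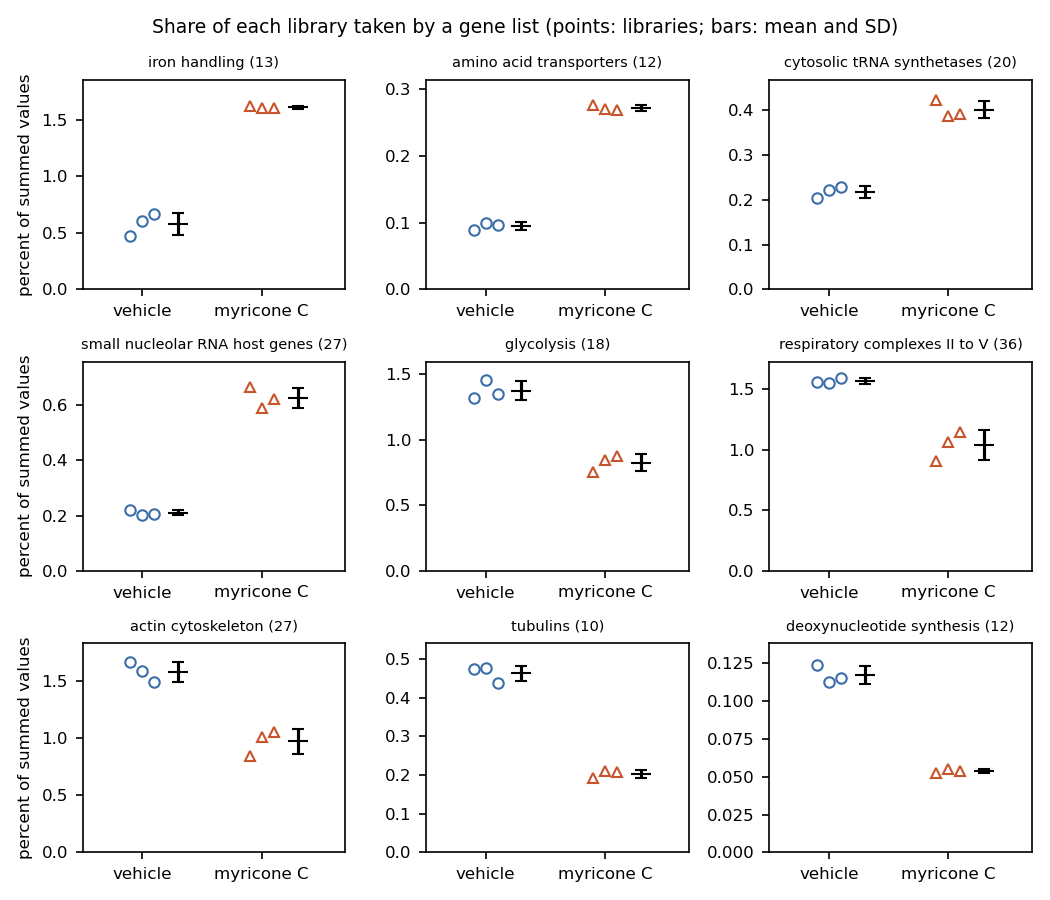
Percent of a library's summed values taken by each of 9 gene lists, with the number of listed members in brackets. Open symbols are the 3 libraries of a group and the bar is their mean with its SD. The summed share of iron handling, mostly FTH1 and FTL, went from 0.476–0.667% to 1.60–1.62%. That of tubulins went from 0.439–0.476% to 0.192–0.210%.

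Genes of DNA replication mostly fell. Of 30 replication fork genes 27 fell and 2 rose (median −1.30). Of 23 origin licensing and helicase genes 19 fell and 0 rose (median −1.24), with 2 rises at an unadjusted limma p under 0.05. Adjusted calls of a rise in the latter list numbered 1 without myricone C replicate 3 and 1 without a mean-variance trend. They numbered 2 in the fit on all 12 libraries. MCM5, a subunit of the replicative helicase, was at 43.8, 37.7 and 35.1 with vehicle and 5.68, 6.70 and 6.75 with myricone C (−2.43 ± 0.12, adjusted p = 1.82e-06). CLSPN, which couples the fork to the checkpoint kinase, went from 10.5, 10.2 and 11.7 to 1.51, 1.34 and 1.89 (−2.20 ± 0.13), and FEN1, the flap nuclease, from 71.4, 66.0 and 56.7 to 17.6, 12.9 and 17.1 (−1.97 ± 0.14). The groups lay far apart in each. The histone chaperone pair split: ASF1B fell from 64.3, 55.0 and 54.3 to 8.86, 9.87 and 11.8 (−2.40 ± 0.12), while ASF1A rose from 5.70, 6.48 and 7.07 to 13.9, 10.3 and 8.85 (0.68 ± 0.16, adjusted p = 0.00705). POLD4, the small subunit of polymerase delta, was the other rise, at 29.8, 33.6 and 23.0 and 38.5, 65.4 and 88.1 (1.06 ± 0.25).

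Genes of deoxynucleotide supply fell too. Of 12 genes 10 fell and 1 rose (median −1.11). TK1, thymidine kinase, went from 91.3, 82.2 and 70.8 to 17.3, 23.0 and 24.3 (−1.88 ± 0.14), TYMS, which makes thymidylate, from 58.1, 59.4 and 57.0 to 11.4, 18.2 and 17.7 (−1.85 ± 0.16), and RRM1, of ribonucleotide reductase, from 75.2, 71.7 and 78.5 to 23.9, 25.6 and 25.1 (−1.56 ± 0.09). In each the treated libraries were all below the vehicle libraries. The mitochondrial kinase TK2 was not called (0.06 ± 0.14). The rise was that of RRM2B, the subunit induced by p53, at 15.3, 11.1 and 21.0 and 25.0, 22.8 and 20.0 (0.53 ± 0.19, adjusted p = 0.0455). Its groups overlapped, and it was no longer called when vehicle replicate 1 (0.52) or 2 (0.31) was dropped, nor when myricone C replicate 1 (0.46) or 2 (0.52) was.

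Among 24 genes that control entry into S phase 17 fell and 3 rose. CCNE1 and CCNE2, the E cyclins, went from 12.2, 13.2 and 15.0 to 1.94, 1.49 and 1.36 (−2.48 ± 0.14) and from 16.0, 9.52 and 15.7 to 2.34, 2.30 and 1.56 (−2.24 ± 0.20). E2F1 fell from 23.7, 23.2 and 18.4 to 3.42, 4.09 and 4.37 (−2.20 ± 0.14, adjusted p = 3.92e-06) and E2F2 by 1.29 ± 0.14, while the repressors E2F4 and E2F6 were not called (−0.00 ± 0.10 and 0.32 ± 0.12). E2F6 was called as higher without vehicle replicate 3 (0.38), without a mean-variance trend (adjusted p = 0.0488) and in the fit on all 12 libraries (adjusted p = 0.0448). D cyclins fell as well, CCND1 by 1.19 ± 0.14 and CCND3 by 1.54 ± 0.13. CDK2 fell by 1.40 ± 0.14, whereas CDK4 was not called (−0.15 ± 0.09).

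The inhibitors of cyclin-dependent kinases took different directions. CDKN1A (p21) went from 63.4, 47.5 and 38.5 to 162, 143 and 143 (1.59 ± 0.16, adjusted p = 4.86e-05) and CDKN2B (p15) from 5.38, 4.10 and 3.14 to 12.6, 9.91 and 10.0 (1.20 ± 0.17, adjusted p = 0.000405). CDKN1B (p27) was not called (0.19 ± 0.10), although its treated libraries all lay above its vehicle libraries. CDKN2C (p18) and CDKN2D (p19) fell by 1.39 ± 0.18 and 0.78 ± 0.21, the latter changing by −0.50 without myricone C replicate 1. The pocket proteins differed as well: RBL1 (p107) fell by 1.38 ± 0.15, while RBL2 (p130) was the third rise of the list, at 9.73, 8.81 and 10.3 and 13.1, 13.1 and 13.0 (0.41 ± 0.11), a call lost without vehicle replicate 2 (0.36). RB1 changed by −0.38 ± 0.14 with overlapping groups (adjusted p = 0.0495). It was not called when any library but myricone C replicate 1 was dropped (−0.43 to −0.30), with quantile normalization (−0.37) or without a mean-variance trend (adjusted p = 0.0591).

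The promoters of UHRF1, which maintains DNA methylation behind the fork, and MCM6 are shown for their E2F matches. UHRF1 lies on the plus strand at chr19:4909251-4909500 and MCM6 on the minus strand at chr2:135876444-135876693. Capitals near the end of UHRF1 mark TTTCCCGC on the reverse strand and those near its beginning an antioxidant element match. In MCM6 both capital runs are TTTGGCGC.
UHRF1: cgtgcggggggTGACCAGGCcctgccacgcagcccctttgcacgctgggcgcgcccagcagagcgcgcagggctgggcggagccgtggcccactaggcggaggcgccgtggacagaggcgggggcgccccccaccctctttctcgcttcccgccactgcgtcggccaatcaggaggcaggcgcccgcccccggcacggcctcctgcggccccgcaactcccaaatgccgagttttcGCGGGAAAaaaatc
MCM6: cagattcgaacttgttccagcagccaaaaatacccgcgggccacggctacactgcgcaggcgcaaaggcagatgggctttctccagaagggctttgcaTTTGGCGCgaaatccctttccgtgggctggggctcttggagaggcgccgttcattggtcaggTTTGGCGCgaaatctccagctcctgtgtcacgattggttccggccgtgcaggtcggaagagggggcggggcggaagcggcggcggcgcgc
UHRF1 was at 31.6, 31.1 and 24.3 with vehicle and 3.94, 4.37 and 5.76 with myricone C (−2.40 ± 0.15), and MCM6 at 39.9, 35.5 and 37.6 and 5.70, 7.02 and 6.91 (−2.36 ± 0.11). TTTCCCGC was in 2.37% of all promoters, 1.33% of those of genes that rose by at least 1 and 4.48% of those that fell. TTTGGCGC was in 0.931%, 0.664% and 3.92%. The cell cycle homology region TTTGAA was in 8.06%, 9.30% and 12.9%, and CCAAT, which is also part of the ER stress element, in 35.5%, 45.8% and 45.9%.

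Genes of mitosis fell as well. Of 24 mitotic kinases and cyclins 22 fell and 0 rose, with 0 rises also at an unadjusted limma p under 0.05 (median −0.87), and of 30 kinetochore, cohesin and condensin genes 25 fell and 1 rose (median −0.86). The rise, of the cohesin gene STAG2 (0.73 ± 0.25), was lost without vehicle replicate 1 (0.40) or myricone C replicate 1 (0.60) or 2 (0.76). CDK1, the mitotic kinase, went from 85.0, 81.6 and 92.5 to 38.3, 31.9 and 31.9 (−1.32 ± 0.10) and CCNA2, cyclin A, from 55.4, 53.1 and 61.8 to 23.8, 24.5 and 20.2 (−1.28 ± 0.11). ZWINT, of the outer kinetochore, fell further, from 113, 103 and 109 to 24.8, 23.4 and 28.8 (−2.04 ± 0.10, adjusted p = 1.82e-06). Treated and vehicle libraries did not overlap. Of 29 genes of homologous recombination and the DNA damage checkpoint 20 fell and 1 rose. The fall was led by EXO1, a resection nuclease (−1.60 ± 0.14), and FANCI (−1.32 ± 0.10), and the rise was that of ATM, the damage kinase, from 2.81, 2.69 and 3.46 to 8.17, 6.35 and 6.49 (1.00 ± 0.14, adjusted p = 0.000379). Of 9 listed histone genes 6 fell, among them H2AX (−1.31 ± 0.14) and H2AZ1 (−0.94 ± 0.10), and 1 rose.

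**Figure D4:**
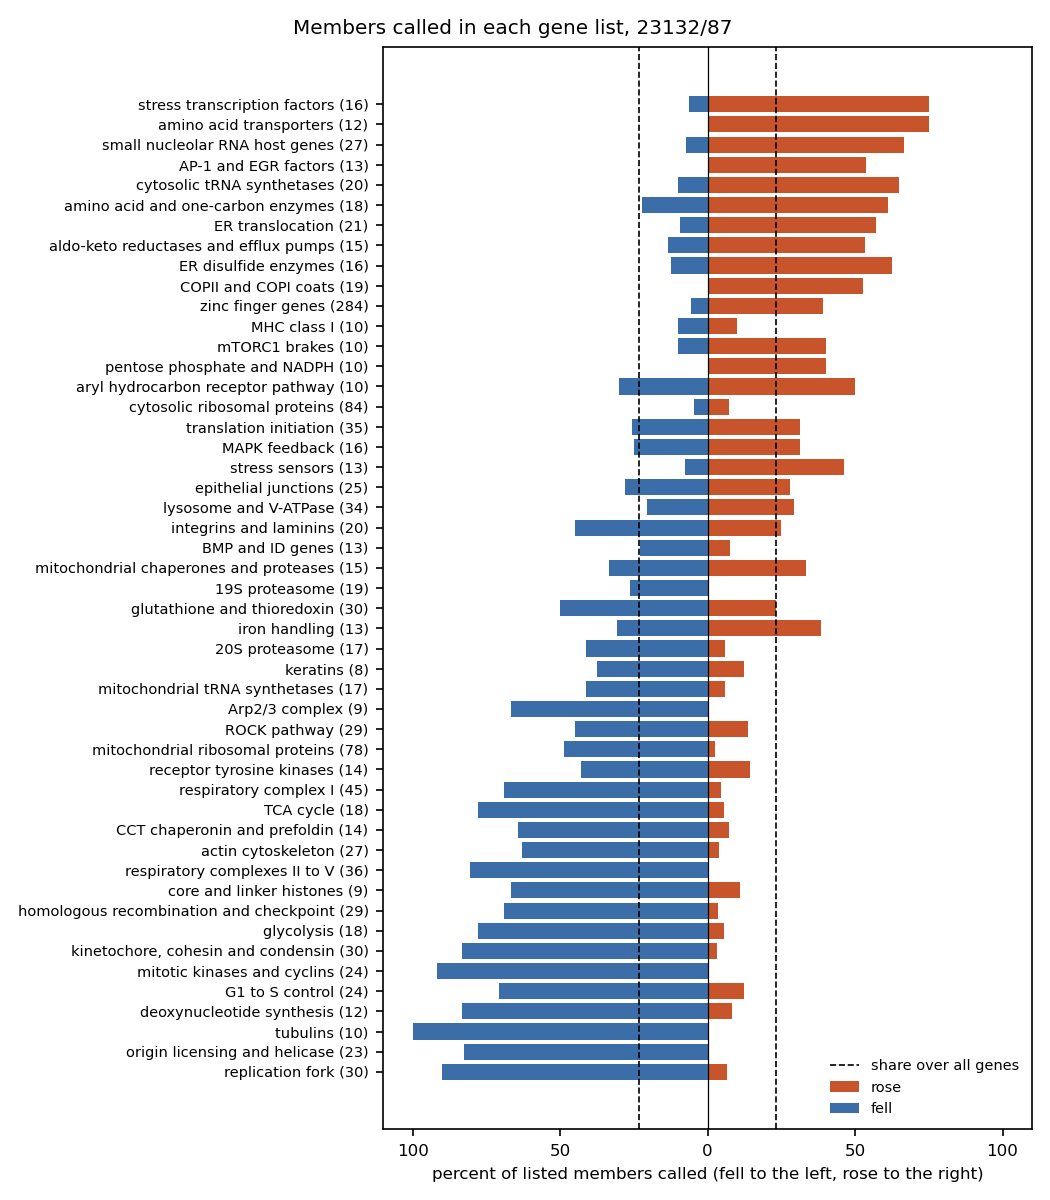
Percent of the listed members of each gene list that rose (red, right) or fell (blue, left), ordered by the list's median change, with the number listed in brackets. Dashed lines are the shares over all genes, 23.3% and 23.2%; all 10 listed tubulins fell and 12 of 16 stress transcription factors rose.

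The cytoskeleton fell broadly. All 10 listed tubulin genes fell, with a median of −1.23 and 0 rises at an unadjusted limma p under 0.05. TUBA1B went from 567, 590.4 and 542 to 149, 182 and 188 (−1.71 ± 0.11, adjusted p = 4.98e-06) and TUBB from 551, 531 and 509.6 to 199, 221 and 222 (−1.31 ± 0.10). Tubulin genes are close in sequence, so the division of reads among them is uncertain, but their summed share went from 0.439 to 0.476% to 0.192 to 0.210%. Of 14 genes of the chaperonin and prefoldin that fold tubulin and actin 9 fell and 1 rose, with CCT5 (−0.98 ± 0.10), CCT3 (−0.97 ± 0.10) and CCT2 (−0.93 ± 0.09) falling. The rise was that of PFDN2, from 87.5, 96.5 and 85.2 to 164, 189.6 and 208 (1.05 ± 0.11, adjusted p = 6.53e-05).

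Of 27 actin cytoskeleton genes 17 fell and 1 rose (median −0.57). ACTB, the main actin, went from 2123, 2059 and 1848 to 496, 709 and 687 (−1.69 ± 0.15, adjusted p = 3.12e-05), and TPM1, a tropomyosin, from 129, 107 and 103 to 37.6, 47.4 and 54.0 (−1.28 ± 0.14). Both groups were well apart. The rise was PFN2, a profilin, at 0.46 ± 0.11, and 2 genes rose without myricone C replicate 1. Of 9 subunits of the actin-branching complex 6 fell and 0 rose, 0 also at an unadjusted limma p under 0.05, led by ARPC4 (−0.79 ± 0.12) and ARPC5 (−0.79 ± 0.12), and 3 fell without vehicle replicate 2, without myricone C replicate 1 or with quantile normalization.

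The series title names ROCK, the kinase that drives actomyosin contraction downstream of RHOA. ROCK1 was at 2.13, 2.46 and 2.78 with vehicle and 4.16, 3.44 and 2.86 with myricone C and ROCK2 at 10.9, 11.6 and 14.8 and 15.7, 14.0 and 15.6. Neither was called (0.37 ± 0.15, adjusted p = 0.0651, and 0.27 ± 0.13, adjusted p = 0.117). ROCK1 was called as higher without myricone C replicate 3 (0.47), without a mean-variance trend (adjusted p = 0.0475) and in the fit on all 12 libraries (adjusted p = 0.0295), and ROCK2 was called as higher without vehicle replicate 3 (0.39). No setting gave a call of lower mRNA for either kinase.

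Downstream of the kinases, the pathway list holds 7 non-muscle myosin genes, of which 6 fell and MYH14 was not called. MYL9, a regulatory light chain, was at 51.6, 21.3 and 13.7 with vehicle and 4.29, 5.40 and 7.31 with myricone C (−1.98 ± 0.38, adjusted p = 0.00215), and its vehicle libraries spread widely. MYL6, the essential light chain, went from 969.8, 861 and 814 to 274, 395 and 458 (−1.26 ± 0.18) and MYH9, a heavy chain, from 124, 130.0 and 98.8 to 62.6, 70.4 and 70.4 (−0.78 ± 0.12). Neither pair overlapped. MYH10 fell by 0.83 ± 0.13, MYL12B by 0.59 ± 0.12 and MYL12A by 0.34 ± 0.11, the last a call lost without vehicle replicate 1 (−0.27) or 3 (−0.35) or with quantile normalization (−0.20). MYH14, another heavy chain, overlapped between the groups (−0.49 ± 0.21) and was called as lower without vehicle replicate 3 (−0.75). CFL1, the actin-severing cofilin that LIM kinases inhibit, fell from 947, 909 and 800.5 to 332, 517 and 457 (−1.04 ± 0.16), and the formin DIAPH1 fell by 0.55 ± 0.10. LIMK2 fell by 0.39 ± 0.10 while LIMK1 was not called (−0.19 ± 0.15).

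The small GTPases and their activators were mixed. RHOB, a stress-inducible relative of RHOA, went from 38.3, 35.3 and 29.2 to 58.3, 57.5 and 56.0 (0.73 ± 0.11, adjusted p = 0.000569), and ARHGEF2, a microtubule-bound activator of RHOA, from 22.4, 19.3 and 17.4 to 58.8, 68.8 and 63.7 (1.65 ± 0.11, adjusted p = 6.14e-06). In both, all treated libraries were higher. RHOA fell from 412, 437 and 458 to 341, 353 and 352 (−0.32 ± 0.10, adjusted p = 0.0205), a call lost without vehicle replicate 2 (−0.32) or 3 (−0.28), without myricone C replicate 2 (−0.33) or with quantile normalization (−0.12). Of the 29 genes of the pathway 13 fell and 4 rose.

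Among the largest falls were the cytosolic chaperone genes HSPA1A and HSPB1. HSPA1A, an inducible HSP70, was at 223, 267 and 184 with vehicle and 38.4, 49.5 and 52.3 with myricone C (−2.24 ± 0.15, adjusted p = 5.82e-06), and HSPB1 at 145, 185 and 129 and 27.8, 31.5 and 35.3 (−2.23 ± 0.14, adjusted p = 4.09e-06). HSPA1A has the near-identical copy HSPA1B, with which its reads may be divided. HSPA1A thus fell in the libraries in which HSPA5 rose, and the cytosolic chaperones were not counted as a list. The mitochondrial chaperonins fell too, HSPE1 from 582, 540.0 and 589 to 134, 193 and 212 (−1.69 ± 0.16) and HSPD1 by 0.85 ± 0.10. The mitochondrial protease LONP1 rose by 0.66 ± 0.13, and the 15 genes of mitochondrial chaperones and proteases held 5 rises and 5 falls, with 3 rises without myricone C replicate 2.
The promoter of HSPA1A, on the plus strand at chr6:31815293-31815542, is shown with its match to the heat shock element in capitals.
HSPA1A: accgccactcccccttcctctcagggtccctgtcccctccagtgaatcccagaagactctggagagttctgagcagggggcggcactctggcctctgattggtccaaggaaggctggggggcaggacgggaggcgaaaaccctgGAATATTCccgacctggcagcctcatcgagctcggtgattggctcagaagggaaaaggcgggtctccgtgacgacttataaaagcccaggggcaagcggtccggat
That element, GAANNTTC, was in 3.88% of all promoters, 5.32% of those of genes that rose by at least 1 and 5.60% of those that fell.

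Energy metabolism fell in each compartment. Of 45 genes of respiratory complex I 31 fell and 2 rose (1 without vehicle replicate 2; median −0.51), and of 36 genes of complexes II to V 29 fell and 0 rose (median −0.69), with 0 rises at an unadjusted limma p under 0.05. NDUFB3 went from 121, 120.1 and 127 to 29.9, 47.2 and 53.8 (−1.51 ± 0.18), ATP5MC3, of the ATP synthase ring, from 202, 207 and 208 to 59.9, 71.7 and 73.3 (−1.58 ± 0.10), and UQCRC2 from 255, 309 and 322 to 92.1, 106 and 114 (−1.49 ± 0.12). No treated library reached a vehicle library in these. Of 78 mitochondrial ribosomal protein genes 38 fell and 2 rose (median −0.32), led by MRPS6 (−0.98 ± 0.10). All these genes are encoded in the nucleus, and mitochondrially encoded genes are not listed. Entries named as pseudogenes of mitochondrial genes are listed. They took 13.4 to 15.6% of a library's summed values with vehicle and 13.5 to 14.4% with myricone C.

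Of 18 genes of the citric acid cycle and its side branches 14 fell and 1 rose. IDH2, mitochondrial isocitrate dehydrogenase, fell by 1.32 ± 0.15 while cytosolic IDH1 rose, as above. The rise was PCK2, which turns mitochondrial oxaloacetate into phosphoenolpyruvate, from 11.9, 11.9 and 14.8 to 79.1, 123 and 112 (2.91 ± 0.16, adjusted p = 3.01e-06). Of 18 glycolytic genes 14 fell and 1 rose. PKM went from 1057, 1285 and 1139 to 391, 484 and 545 (−1.30 ± 0.14), PGAM1 from 202, 198 and 187 to 65.5, 78.3 and 89.1 (−1.33 ± 0.12), and ALDOC was the rise (0.60 ± 0.12). The glycolytic list took 1.32 to 1.46% of the summed values with vehicle and 0.753 to 0.876% with myricone C. GAPDH, a common reference gene, was at 1713, 1809.7 and 1663 and 885, 1214 and 1219 (−0.66 ± 0.15, adjusted p = 0.00563), and both GAPDH and ACTB therefore differed between the groups.

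Cytosolic ribosomal protein genes held few calls. Of 84 cytosolic ribosomal protein genes 6 rose and 4 fell, both below the background shares, with a median of 0.09. The rises numbered 35 without myricone C replicate 1, 29 with quantile normalization, 3 with median-centred libraries, and 1 or 2 on leaving out any other library. The falls numbered 2 without vehicle replicate 2. RPS26 was the largest fall, from 241, 228 and 226 to 109, 124 and 130.0 (−0.94 ± 0.10, adjusted p = 7.11e-05). RPL10 rose from 445, 452 and 439 to 609, 679 and 636 (0.52 ± 0.10). Of 17 proteasome core genes 7 fell and 1 rose (PSMB9, not called without vehicle replicate 2 (0.54) or 3 (0.53), or myricone C replicate 2 (0.56)), with PSMB3 (−1.02 ± 0.10) and the catalytic PSMB5 (−0.52 ± 0.08) among the falls. Of 19 cap genes 5 fell, close to the background share of 23.2%, and 0 rose (9 fell with median-centred libraries). At an unadjusted limma p under 0.05 there were 0 rises and 9 falls, without an unadjusted share over all genes to set beside them. Of 34 lysosomal and proton pump genes 10 rose and 7 fell (4 fell without vehicle replicate 2 or with quantile normalization), with NPC1, the cholesterol exporter (1.03 ± 0.12), and TFE3, a regulator of lysosomal genes (0.91 ± 0.10), among the rises, and both counts were close to the background.

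Receptor and feedback genes of growth factor signalling moved in both directions. FGFR4 went from 54.5, 68.0 and 54.6 to 16.6, 24.9 and 29.5 (−1.31 ± 0.18), FGFR3 from 6.00, 5.65 and 4.68 to 1.30, 1.34 and 1.87 (−1.37 ± 0.15) and EPHB3 from 16.1, 30.5 and 22.8 to 4.64, 5.90 and 6.58 (−1.81 ± 0.21). EGFR rose from 5.92, 7.88 and 8.23 to 12.9, 11.2 and 11.3 (0.63 ± 0.14, adjusted p = 0.00479). Receptors for different ligands thus moved in opposite directions, with 6 falls and 2 rises among 14 listed. The other rise, of MET (0.39 ± 0.12), was lost without vehicle replicate 1 or 2 and also without myricone C replicate 1 or 2, with changes from 0.30 to 0.41. DUSP6, the phosphatase induced by and acting on ERK, fell from 16.9, 17.1 and 20.2 to 8.95, 8.20 and 7.93 (−1.02 ± 0.12), while DUSP4 and DUSP1 rose by 0.78 ± 0.18 and 0.65 ± 0.16. Of 13 AP-1 and EGR factors 7 rose and 0 fell, 0 also at an unadjusted limma p under 0.05, led by JUN (1.25 ± 0.20), FOS (1.24 ± 0.22) and JUND (1.21 ± 0.10). JUND was at 23.3, 23.5 and 20.2 with vehicle and 54.9, 53.6 and 50.1 with myricone C. BMP4 fell by 1.13 ± 0.16 and its target ID3 by 1.10 ± 0.14, and BAMBI, a decoy receptor, rose by 0.86 ± 0.18; the 13-gene list held 3 falls, at the background share, and 1 rise, below it.

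The simple keratins KRT8 and KRT18, with many pseudogenes, went from 5319, 4541 and 3813 to 1302, 1793 and 1813 (−1.48 ± 0.19) and from 3443, 3036 and 2668 to 787, 1144 and 1106 (−1.60 ± 0.17), and KRT19 from 1166, 948 and 811 to 293, 497 and 479.6 (−1.22 ± 0.21). KRT7 overlapped between the groups and was not called (−0.01 ± 0.18). CDH1, E-cadherin, rose from 92.8, 108 and 102 to 158, 147 and 141 (0.56 ± 0.10, adjusted p = 0.00128). Of 25 junction genes 7 rose and 7 fell, close to the background on both sides, with CLDN7 (1.06 ± 0.10) and OCLN (0.81 ± 0.14) among the rises and CDH3 (−0.62 ± 0.16) and NECTIN2 (−0.63 ± 0.13) among the falls. VIL1, the brush border villin, fell from 183, 227 and 182 to 47.8, 77.5 and 79.9 (−1.54 ± 0.18) and TFF1 from 219, 310.5 and 346 to 135, 173 and 172 (−0.85 ± 0.17), whereas the intestinal lectin LGALS4 rose from 5.47, 17.4 and 13.4 to 23.4, 35.3 and 37.6 (1.44 ± 0.33, adjusted p = 0.00575).

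Transcripts outside the usual pathways also changed. Of 27 listed host genes of small nucleolar RNAs and related long RNAs 18 rose and 2 fell, with a median of 0.75. GAS5 was at 236, 203 and 234 with vehicle and 884, 837 and 826 with myricone C (1.92 ± 0.10, adjusted p = 2.59e-06), SNHG32 at 53.0, 54.4 and 54.5 and 204, 213 and 209 (1.93 ± 0.08), and NEAT1, the scaffold RNA of paraspeckles, at 220.0, 173 and 172 and 804, 728 and 752 (2.02 ± 0.12). Groups were apart for all 3. DANCR went the other way, from 15.0, 16.0 and 13.1 to 6.98, 9.66 and 9.06 (−0.72 ± 0.14). The list's share rose from 0.204 to 0.220% to 0.591 to 0.666% of the summed values. TPT1, an abundant growth-related mRNA, rose from 973, 898 and 1027 to 1592, 1646 and 1528 (0.72 ± 0.12). Of 284 zinc finger genes 111 rose and 16 fell (median 0.29), led by ZNF449 (1.64 ± 0.14) and ZNF841 (1.59 ± 0.17). ZNF367, expressed with the cell cycle, fell from 10.9, 8.44 and 8.60 to 2.58, 1.87 and 1.81 (−1.74 ± 0.15). The 284 zinc finger genes had means from 1.28 to 89.8. With the filter of at least 10 in at least 3 libraries, 36 zinc finger genes rose and 4 fell. Over all 6767 genes tested with that filter, 1658 rose and 1978 fell. The number of zinc finger genes that it kept is not given here, so these counts are not shares.

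A set of 806 genes was listed for 23132/87 but not for SW48, of which 24.6% rose and 22.0% fell, shares close to the background. Their levels were low, with a median mean value of 4.11 against 14.2 for genes in both tables. CAPN5, a calpain, went from 2.08, 1.65 and 1.25 to 14.3, 18.3 and 15.7 (2.69 ± 0.15), PTPRH, a receptor phosphatase, from 1.86, 1.52 and 1.01 to 15.4, 14.4 and 12.7 (2.63 ± 0.16), and ADM2, a peptide hormone gene, from 2.24, 2.65 and 2.43 to 12.5, 13.9 and 11.6 (1.99 ± 0.12). All rose from values near the table's lower limit. CCN2, a target of YAP and of contractile signalling, fell from 22.2, 10.5 and 9.94 to 1.89, 1.62 and 2.13 (−2.32 ± 0.25), and AQP5, a water channel, from 27.5, 18.1 and 21.1 to 2.12, 4.47 and 5.11 (−2.28 ± 0.24). FAM111B, a serine protease, fell from 12.1, 11.5 and 11.4 to 2.73, 1.25 and 1.28 (−2.24 ± 0.19). Vehicle replicate 1 was the highest library for CCN2 and AQP5, and the groups stayed apart.

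**Figure D5:**
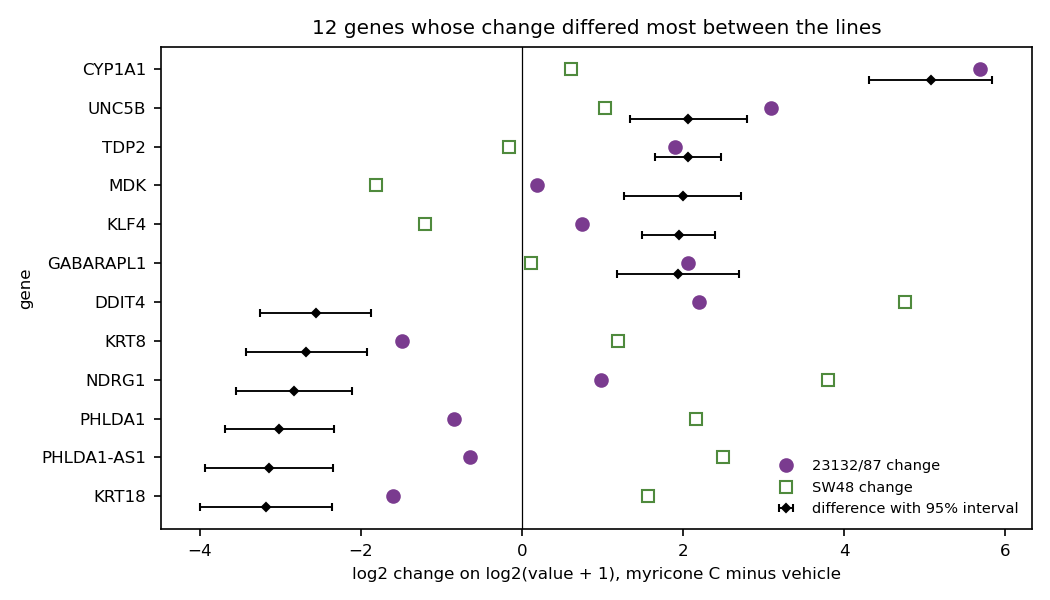
Change with myricone C in 23132/87 (filled circles) and SW48 (open squares), and the difference, 23132/87 minus SW48, with its 95% interval (diamonds), on the log2(value + 1) scale. Genes are the 6 with the largest difference in each direction; CYP1A1 is at 5.08 and KRT18 at −3.17.

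The 23132/87 change was set against that in SW48 by a line-by-treatment term over the 10264 genes in both tables, and 12.7% of them differed at an adjusted p under 0.05 (limma), 759 with the higher change in 23132/87 and 547 with the lower. Without SW48 vehicle replicate 2 the count of 1306 genes fell to 830. CYP1A1 differed most, with a change of 0.61 in SW48, where it was at 2.32, 3.28 and 2.71 with vehicle and 8.42, 4.26 and 2.82 with myricone C. The difference was 5.08 ± 0.36 (adjusted p = 4.76e-06). TDP2, which frees trapped topoisomerase from DNA, went from 27.7, 28.1 and 32.7 to 134, 108 and 99.9 in 23132/87 and changed by −0.15 in SW48, a difference of 2.06 ± 0.19 (adjusted p = 6.67e-05). GABARAPL1, an autophagosome protein, went from 4.18, 3.94 and 4.10 to 27.5, 18.3 and 16.2 in 23132/87, a difference of 1.94 ± 0.35 (adjusted p = 0.00318). DDIT4 rose in 23132/87 but less than in SW48, where the change was 4.75, with a difference of −2.56 ± 0.32 (adjusted p = 0.000355).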

How the data were processed

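Polyadenylated RNA of 23132/87 cells was sequenced with a stranded kit, per the labels' protocols. The submitters' processing notes name FastQC, STAR and GRCh38; the counting tool, strand setting and annotation are not named in the sources used. The authors deposited an expression signal per gene, already normalized. Its range and sums are like those of FPKM or TPM values, and the unit was not settled. It is not a count, so depth per library is unknown and counting intervals are left out. The column headed as an Entrez identifier holds Ensembl identifiers.

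Values were transformed as log2(value + 1), and a minimum mean of 1 was asked of each gene, which removed none of 11070. A trended limma model (limma 3.58.1, R 4.3.3) with Benjamini-Hochberg adjusted p-values was fitted to the 6 libraries, or to all 12 over the genes of both tables for the line-by-treatment term. Where a gene list is described, counts and medians are given without a set test. The members and the 54 lists were chosen with earlier results of these data known. Genes named are the 12 largest rises and falls with a mean of at least 10, the 3 largest in each direction of each list, all members of marked lists, the 6 largest in each direction among genes absent from the SW48 table (mean at least 5), the 6 most abundant in each direction, the 6 largest line differences in each direction, and genes whose promoters were printed. Of the genes, 10977 matched GENCODE 29 by identifier. Scripts were tested on simulated data. Alternatives were quantile normalization, median centring, no trend, no filter, a filter of at least 10 in at least 3 libraries, pseudocounts of 0.1 and 5, a fold threshold of 0.5 on the log2 scale, a replicate block, 1 fit of all 12 libraries, and each library left out. Genes with near-identical copies or antisense partners are uncertain, because the strand setting is unknown. Some genes covered by the naming rule are not reported here.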

Additional observations from a re-analysis of the deposited data

Results flagged for a closer look

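The 12 genes given here were picked because their change with myricone C differed most between the lines, by limma's line-by-treatment term at an adjusted p under 0.05, so the sizes are a description. Differences are 23132/87 minus SW48 on the log2(value + 1) scale, and all 12 kept their call under every alternative run for that term.

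Among the genes with a higher change in 23132/87, CYP1A1 had a difference of 5.08, TDP2 of 2.06 and GABARAPL1 of 1.94. UNC5B, a netrin receptor, was at 20.0, 14.2 and 17.1 with vehicle and 30.9, 39.1 and 37.5 with myricone C in SW48, and the difference was 2.07 (95% interval 1.34 to 2.80). In 23132/87 it went from 7.08, 3.12 and 2.29 to 34.9, 42.8 and 42.5. MDK, a growth factor, was not called in 23132/87, at 12.9, 11.9 and 9.43 against 8.37, 21.0 and 12.5, and changed by −1.81 in SW48, a difference of 2.00. KLF4, an epithelial zinc finger factor, rose from 8.13, 9.97 and 8.47 to 19.5, 14.5 and 13.1 in 23132/87 and changed by −1.20 in SW48, a difference of 1.95.

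In the other direction, the simple keratins fell in 23132/87 and were higher with myricone C in SW48. KRT18 was at 555, 235 and 553 with vehicle and 1076, 1609 and 1104 with myricone C in SW48, and the difference was −3.17 (95% interval −3.99 to −2.36). KRT8 was at 843, 389.9 and 777 with vehicle and 1354, 1864 and 1213 with myricone C in SW48, and the difference was −2.67 (95% interval −3.43 to −1.92). PHLDA1 and its antisense RNA PHLDA1-AS1 fell in 23132/87 by 0.84 and 0.64 on the log2 scale and changed by 2.16 and 2.50 in SW48, differences of −3.01 and −3.14. The 2 genes overlap, and without a known strand setting their reads cannot be told apart. In the fit on all 12 libraries the fall of PHLDA1-AS1 in 23132/87 was not called (adjusted p = 0.0582). NDRG1 rose from 24.7, 35.3 and 24.0 to 61.0, 53.6 and 51.7 in 23132/87 and by 3.81 on the log2 scale in SW48, a difference of −2.83, and DDIT4 had a difference of −2.56.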

How the results depend on the processing

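No named gene reversed its direction under any alternative where it was called in the main fit or in that alternative. Changes of sign without a call in either were not counted. Of 301 called named genes, 34 lost the call under at least 1 alternative other than the stricter fold threshold, and 129 when that threshold is included. Genes that an alternative did not test were not counted as lost there. The filter of at least 10 in at least 3 libraries tested 299 of the 343 named genes, and the fit on all 12 libraries also left some out. The counts of 2582 rises and 2571 falls fell to 437 and 528 when the change had to exceed 0.5 on the log2 scale, and rises to 1658 with the filter of at least 10 in at least 3 libraries, where 6767 genes were tested. Genes changed by at least 1 numbered 444 with a pseudocount of 5, which shrinks changes of low genes, against 835. Leaving out 1 library gave 2009 to 2435 rises, 1950 to 2453 falls, 747 to 971 genes changed by at least 1, and 830 to 1412 genes differing between the lines, against 1306. The lowest of these, 830, came without SW48 vehicle replicate 2; the cause was not tested.

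Same-numbered libraries of the 2 groups did not deviate together (correlations −0.24, 0.11 and −0.27). Differently numbered ones had correlations from −0.21 to 0.36, the highest for vehicle replicate 3 with myricone C replicate 1. With 3 libraries a group, these correlations cannot settle whether libraries were prepared in pairs. The main fit did not use the numbers as pairs. With the replicate block there were 2207 rises, 2242 falls, 837 genes changed by at least 1 and 770 genes differing between the lines. The last count rests on the SW48 titles, which number the myricone C libraries 1 to 3 while their columns are headed 2 to 4, so the SW48 pairing is uncertain. Read depth is unknown, genes silent in either group are not listed, and 3 libraries a group limit the precision of small changes.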

Other observations

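Non-coding transcripts rose more often than they fell in 23132/87. Of 124 long intergenic RNA genes 39.5% rose and 12.1% fell, of 64 processed transcripts 40.6% rose and 4.69% fell, and of 209 antisense genes 28.2% rose and 9.09% fell, against 22.9% and 24.3% of 10248 protein-coding genes. The strand setting of the counting is not known, so antisense values are uncertain.

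The change also varied with gene properties. With genes in 5 equal bins of mean value, in the highest bin 38.1% fell and 20.2% rose, with a median change of −0.14, against 12.6% and 21.0% and a median of 0.10 in the lowest bin. By transcript GC content, the lowest of 5 bins had 28.8% rises and 16.5% falls (median 0.12) and the highest bin 14.4% rises and 27.9% falls (median −0.13). By transcript length, the shortest bin had 17.4% rises and 27.4% falls and the longest 24.3% rises and 17.5% falls. These properties vary together across genes, and their part in any list's result was not tested.

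Among the most abundant called genes, S100A6, a calcium-binding protein, PTMA, a chromatin-associated acidic protein, and PPIA, cyclophilin A, fell by 0.90 ± 0.22, 1.54 ± 0.16 and 1.18 ± 0.18 on the log2 scale, and AGR2, a disulfide isomerase of secretory epithelia, rose by 0.76 ± 0.19. PTMA and PPIA have many pseudogenes. IGFL2, a growth factor-like gene, was the largest fall, by 2.94 ± 0.20.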
